A study of Mus musculus with 8 samples.

Results

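The genes described here are 10 immediate early genes, Fos, Fosb, Jun, Junb, Jund, Egr1, Atf3, Ier2, Nr4a1 and Dusp1, in the RPE/choroid of old and young mice. They were taken by name, with earlier results of these data known. Every probe set that the array annotation assigns to one of them alone was used. This gave 12 probe sets of the 45037 that are not controls, and 10 genes of the 18193 that have a probe set of their own. Jun and Jund each had 2 probe sets and the other 8 genes had 1.

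The old animals were male C57BL/6 mice aged 26 months and the young animals were male C57BL/6 mice aged 4 months. Neither age carried a transgene or received a treatment in the sources used here. Expression was read on Affymetrix Mouse 430 2.0 arrays, 4 per age. Each array held RNA pooled from the 4 RPE/choroids of a pair of mice, and this pool is the replicate. P-values therefore measure the spread between pools of 2 animals each. The RPE is the pigmented epithelium behind the photoreceptors, and the choroid is the vascular layer that feeds it. Of 12 RPE markers, 8 were lower in old arrays at an adjusted p under 0.05 from limma, and the mean centred log2 level of all 12 was -0.19 to -0.03 in old and 0.09 to 0.12 in young arrays. Of the 12, Rpe65, the isomerase of the visual cycle, was at an intensity of 10806 to 11414 in old and 10929 to 12118 in young arrays and was not called. Rlbp1, a retinaldehyde carrier that was lower in old arrays, was at 7755 to 8710 in old and 9673 to 10184 in young arrays, and Best1, a chloride channel that was not called, at 165 to 195 in old and 162 to 172 in young arrays. The rod gene Gnat1 was also present, at 2146 to 5743 in old and 2909 to 5945 in young arrays. Arrays of one age correlated at 0.991 or more, and having 4 of them per age limits how precise any value can be. The hour at which tissue was collected was not given in the sources used here.

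Immediate early genes are transcribed within minutes of a stimulus, without new protein synthesis, by factors that already sit in the cell. Growth factors, light, neural activity, hypoxia and handling of tissue can all induce them, through kinase cascades that act on serum response factor and its Elk partners and on CREB. Most encode transcription factors. Fos and Jun family proteins pair through leucine zippers to form AP-1, Egr1 and Nr4a1 bind DNA through zinc fingers, and Dusp1 is a phosphatase that switches off the MAP kinases which induce it. The transcripts are short-lived, so that their level at the moment of lysis reflects the preceding minutes to hours.

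Proximal promoters are shown for 4 of the genes because the results separate them. Fos, Junb and Dusp1 varied widely and together between arrays of one age, and Atf3 was the gene that differed between the ages. The RefSeq table of build GRCm38.p6 held a promoter for 8 of the 10 genes, all except Egr1 and Ier2. Each sequence is the 250 bases before the annotated start, read 5′ to 3′ on the strand of the gene. Capitals mark the cyclic AMP response element (CRE) TGACGTCA, its core TGACG, which reads as CGTCA where it lies on the other strand, and the TATA box TATAAA. The Fos sequence is chr12:85473640-85473889 on the plus strand. Junb is chr8:84978749-84978998, Dusp1 is chr17:26508473-26508722 and Atf3 is chr1:191183334-191183583, all on the minus strand.
Fos: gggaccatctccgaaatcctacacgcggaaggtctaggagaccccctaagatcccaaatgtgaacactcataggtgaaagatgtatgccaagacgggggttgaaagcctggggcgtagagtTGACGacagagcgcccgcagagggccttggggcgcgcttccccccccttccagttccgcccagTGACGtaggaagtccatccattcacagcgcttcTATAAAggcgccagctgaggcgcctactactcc
Junb: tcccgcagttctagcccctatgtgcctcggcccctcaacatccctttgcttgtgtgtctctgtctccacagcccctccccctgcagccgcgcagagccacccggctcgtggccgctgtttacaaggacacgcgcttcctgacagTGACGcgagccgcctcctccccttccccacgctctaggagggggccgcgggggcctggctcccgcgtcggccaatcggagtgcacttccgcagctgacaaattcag
Dusp1: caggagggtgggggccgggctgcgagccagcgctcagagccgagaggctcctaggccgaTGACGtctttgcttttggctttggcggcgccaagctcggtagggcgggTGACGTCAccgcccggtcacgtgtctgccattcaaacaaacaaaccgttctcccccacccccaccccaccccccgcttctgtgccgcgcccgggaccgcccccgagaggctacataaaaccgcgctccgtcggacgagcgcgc
Atf3: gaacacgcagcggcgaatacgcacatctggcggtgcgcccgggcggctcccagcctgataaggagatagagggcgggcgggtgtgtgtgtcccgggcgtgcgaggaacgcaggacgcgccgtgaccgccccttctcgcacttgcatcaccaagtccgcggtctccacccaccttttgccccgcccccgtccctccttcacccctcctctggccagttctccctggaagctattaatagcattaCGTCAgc

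The core CRE TGACG was found on either strand in 6 of the 8 promoters, those of Fos, Fosb, Junb, Atf3, Nr4a1 and Dusp1, against 21% of 27025 promoters of the same 300-base window (250 before to 50 after the start). Fos held it at -129 to -125 and at -66 to -62, counted from the start, and a TATAAA at -33 to -28. Dusp1 held the full CRE at -143 to -136, which contains the core site on both strands, and a second core site at -191 to -187. The full CRE was found in 1 of the 8 promoters, against 1.88% of all. Atf3 held its core site at -7 to -3 and Junb at -106 to -102. Junb also held TATAAA from 1 to 6 after the annotated start, beyond the bases shown, so that 2 of the 8 promoters held that motif against 14.2% of all. Nr4a1 held 4 core sites. The AP-1 site TGANTCA and the CArG box, the core of the serum response element, were found in 0 of the 8 promoters, against 7.93% and 1.57% of all. A match is a description of the letters in this window, and bases farther from the start were not searched. The core site was present in Atf3, Fosb and Nr4a1 as well as in Fos, Junb and Dusp1, and absent from the windows of Jun and Jund.

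Of the 10 genes, Atf3 was higher in the RPE/choroid of old animals and the other 9 did not pass the test. Across all 18193 genes, 11.8% were called higher and 9.56% lower in old arrays at an adjusted p under 0.05 from limma, each gene being read by its brightest probe set on average. At an unadjusted p under 0.05 from limma, 2 of the 10 genes were higher (Atf3 and Jund) and 0 lower. The share of all genes at that threshold was not counted, so this count has no background beside it. Jund was read there by its brighter probe set, whereas its dimmer probe set was lower (adjusted p = 0.014 from limma). The median log2 difference of the 10 genes was -0.08, beside -0.02 over all genes. By probe set, 1 was higher and 1 lower of 12, against 9.22% of all probe sets called higher and 8.75% called lower, 18.0% in all. In bulk tissue, fewer cells of a type and less RNA per cell cannot be told apart.

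**Figure D1:**
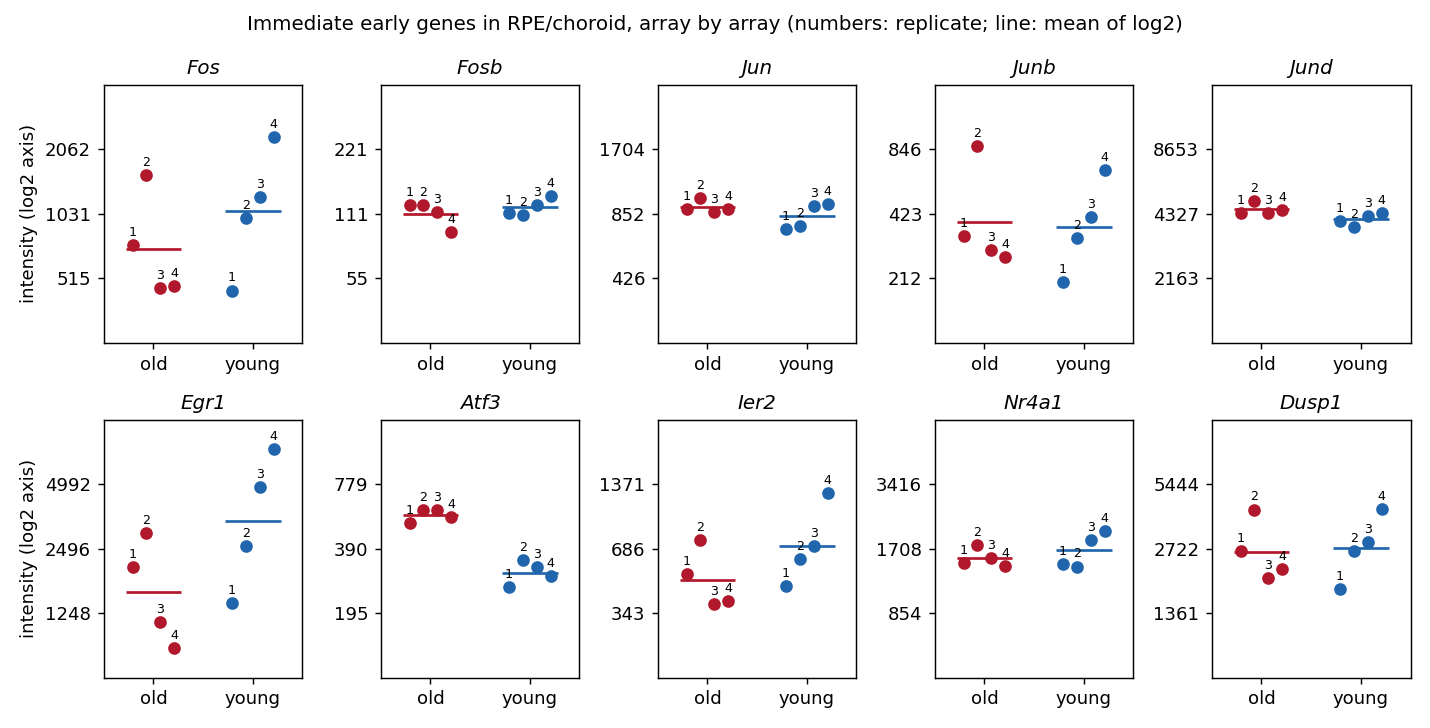
Intensity (log2 axis) of the 10 immediate early genes in each of 4 old (red, left) and 4 young (blue, right) arrays, one probe set per gene, the brightest on average. Points carry the replicate number, lines are means of log2 values, and each axis spans the same fold range. The ages separate in Atf3 and narrowly in Jund, while Fos, Junb, Egr1, Ier2 and Dusp1 spread widely within each age.

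Atf3 encodes a stress-induced factor of the ATF/CREB family that pairs with Jun proteins and often represses its targets. Its intensity (1449363_at) was 515, 590, 588 and 548 in the 4 old arrays, against 257, 346, 319 and 290 in the 4 young arrays. The lowest old array stood above the highest young array. The means were 560 ± 36.0 in old and 303 ± 38.2 in young arrays (SD, n = 4 each), a fold of 1.86 and a log2 difference of 0.89 (95% interval 0.68 to 1.10, standard error 0.09, adjusted p = 0.000399 from limma). The fold is below 2, so Atf3 did not pass the study's own rule of a fold over 2 with an adjusted p under 0.01, which 1.23% of genes and 0.844% of probe sets passed. When each array was left out in turn, the difference lay between 0.82 and 0.96 with adjusted p from 0.000527 to 0.00211. Markers of macrophages, which can express Atf3, moved with age in the same arrays. Of 8 macrophage markers 6 were higher in old arrays, and the mean centred log2 level of the list was 0.21 to 0.69 in old and -0.46 to -0.28 in young arrays. Cd68, a lysosomal protein of macrophages, was at 3886 to 4717 in old and 1410 to 1851 in young arrays, whereas Csf1r, the receptor on which macrophages depend, was at 4654 to 5105 in old and 4735 to 5330 in young arrays. Other lists moved with age too. T cell markers were higher in 4 of 6 cases (list level 0.19 to 0.49 in old and -0.37 to -0.20 in young arrays), endothelial markers lower in 6 of 8 (-0.29 to -0.02 in old and 0.05 to 0.30 in young arrays), inner retinal markers lower in 6 of 8 (-0.62 to -0.08 in old and 0.32 to 0.53 in young arrays), and of 6 Mueller glia markers 3 were lower and 1 higher (-0.73 to -0.10 in old and 0.32 to 0.45 in young arrays). The part of these cells, and of the RPE markers above, in the Atf3 difference was not tested.

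**Figure D2:**
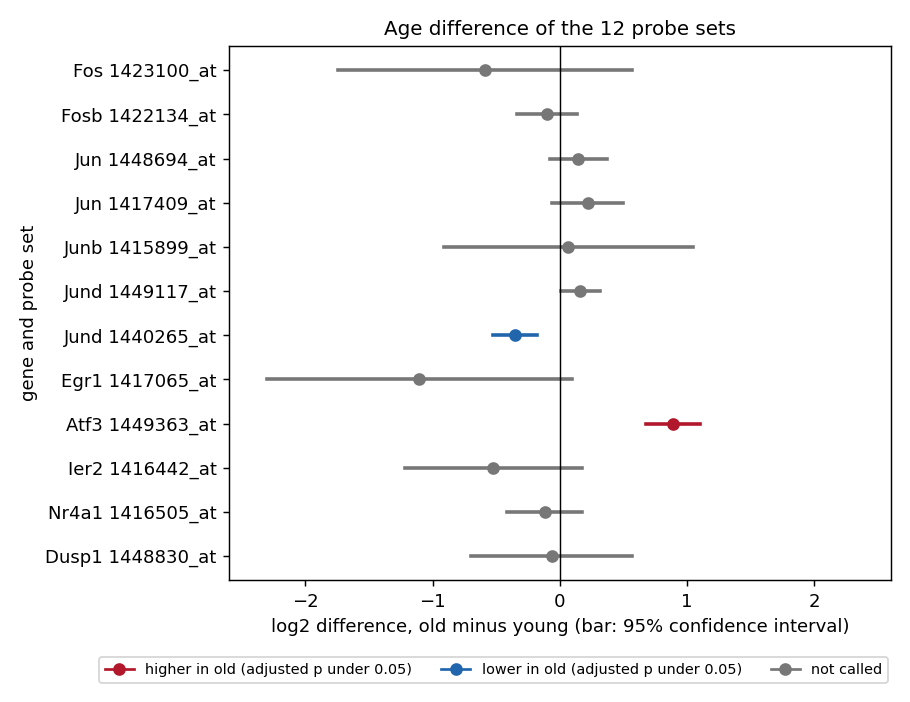
Log2 difference, old minus young, of the 12 probe sets of the immediate early genes, with 95% confidence intervals from limma. Atf3 lies above 0 at 0.89 (red), Jund 1440265_at lies below 0 at -0.35 (blue), and the intervals of Egr1, Fos and Junb are the widest.

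Fos, a classical marker of recent stimulation, varied widely between pools and was not called. Its intensity (1423100_at) was 741, 1559, 464 and 475 in old arrays, against 453, 988, 1239 and 2348 in young arrays. The ages overlapped, and within an age the highest array exceeded the lowest 3.36-fold in old and 5.19-fold in young arrays. The log2 difference was -0.59 (95% interval -1.74 to 0.57, adjusted p = 0.463). The interval reaches from a large decrease to a moderate increase. Its relative Fosb varied less. Fosb (1422134_at) was at 121, 121, 113 and 91.1 in old arrays, against 112, 110, 122 and 135 in young arrays, a log2 difference of -0.10 (95% interval -0.34 to 0.14, adjusted p = 0.538). It was the single member probe set below the median level of all probe sets.

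The Jun proteins are the obligate partners of Fos. Jun itself varied less than Fos between pools, and both of its probe sets gave small positive differences that did not pass. The brighter (1448694_at) was at 899, 1006, 870 and 897 in old arrays, against 722, 748, 925 and 945 in young arrays (log2 difference 0.15, 95% interval -0.08 to 0.37, adjusted p = 0.342). The other (1417409_at) was at 702, 826, 666 and 649 in old arrays, against 501, 591, 610 and 753 in young arrays (0.22, 95% interval -0.06 to 0.50, adjusted p = 0.247). Young arrays 1 and 2 were the lowest by both probe sets.

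Junb, which can antagonize Jun at some promoters, varied far more than Jun. Its intensity (1415899_at) was 335, 877, 286 and 266 in old arrays, against 204, 327, 409 and 681 in young arrays. Old array 2 stood well above the other 3 old arrays, and the ages overlapped. The log2 difference was 0.07 (95% interval -0.91 to 1.04, adjusted p = 0.933), and it became -0.33 without old array 2 (adjusted p = 0.563) and -0.22 without young array 1 (adjusted p = 0.773).

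Jund, the Jun protein that most cells express without stimulation, gave opposite signs by its 2 probe sets. The brighter (1449117_at) was at 4389, 4973, 4391 and 4533 in old arrays, against 3991, 3764, 4211 and 4376 in young arrays. These values did not overlap, by a margin of 4389 against 4376, but the log2 difference of 0.16 (95% interval 0.01 to 0.31) had an adjusted p of 0.128. The dimmer (1440265_at) was at 173, 178, 172 and 170 in old arrays, against 258, 208, 217 and 205 in young arrays, a log2 difference of -0.35 (95% interval -0.53 to -0.18, adjusted p = 0.014). It was lower in every old array than in any young array. Which transcript each probe set reads was not analysed here, and a direction for the gene as a whole is not given. By representative probe set, the ages did not overlap in 2 of the 10 genes, Atf3 and Jund, against 29.5% of all genes.

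Egr1, a zinc finger factor that growth factors, light and neural activity induce, had the largest log2 difference of the 10 genes and did not pass the test. Its intensity (1417065_at) was 2059, 2964, 1137 and 856 in old arrays, against 1395, 2572, 4863 and 7280 in young arrays. The means were 1754 ± 957 in old and 4027 ± 2603 in young arrays (SD, n = 4 each), with a log2 difference of -1.10 (95% interval -2.30 to 0.10, standard error 0.53, adjusted p = 0.182). Young arrays 3 and 4 lay above all old arrays, and young array 1 lay below old arrays 1 and 2. Leaving out single arrays gave -1.53 to -0.73, none of them past the threshold (adjusted p 0.0715 to 0.365). Weighting the arrays by their estimated quality gave -1.60 with an adjusted p of 0.0461, the one alternative in which Egr1 passed. Nr4a1, an orphan nuclear receptor induced with Egr1 in many cells, varied less between pools. Its intensity (1416505_at) was 1461, 1782, 1538 and 1421 in old arrays, against 1454, 1410, 1868 and 2069 in young arrays (log2 difference -0.12, 95% interval -0.41 to 0.18, adjusted p = 0.565).

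Ier2, a small nuclear protein of the same early wave, and Dusp1, the phosphatase of p38, JNK and ERK, also varied between pools. Ier2 (1416442_at) was at 523, 756, 378 and 390 in old arrays, against 459, 616, 706 and 1243 in young arrays (log2 difference -0.52, 95% interval -1.22 to 0.17, adjusted p = 0.271). Dusp1 (1448830_at) was at 2664, 4146, 1993 and 2194 in old arrays, against 1770, 2659, 2923 and 4185 in young arrays (-0.06, 95% interval -0.70 to 0.57, adjusted p = 0.899). Dusp1 spanned nearly the same range at both ages, 1993 to 4146 in old and 1770 to 4185 in young arrays. Its small difference changed sign without old array 3 (0.07), old array 4 (0.02) or young array 4 (0.14).

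The spread between pools of one age was the main feature of these genes. The SD of log2 values within an age, pooled over both ages, was 0.94 for Egr1, 0.90 for Fos, 0.76 for Junb, 0.54 for Ier2 and 0.49 for Dusp1. These 5 genes each exceeded at least 99.2% of the probe sets above the median level, and Fos and Egr1 exceeded 99.9%. Over all 10 genes the median was 0.35, beside 0.10 for all genes and 0.09 for genes above the median level. Such spread was not particular to these genes. The median was 0.71 for neutrophil, 0.65 for rod and 0.35 for skeletal muscle markers, and 0.07 to 0.23 for the other lists counted. The other 5 genes varied less, at 0.22 for Nr4a1, 0.17 for Fosb, 0.16 for Jun, 0.15 for Atf3 and 0.09 for Jund. Of these, Nr4a1, Fosb, Jun and Atf3 still exceeded 94.7%, 89.3%, 86.8% and 83.4% of the probe sets above the median level, and Jund exceeded 48.1%. The log2 difference of 0.89 in Atf3 thus stood against an SD of 0.15, and that of -1.10 in Egr1 against an SD of 0.94.

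**Figure D3:**
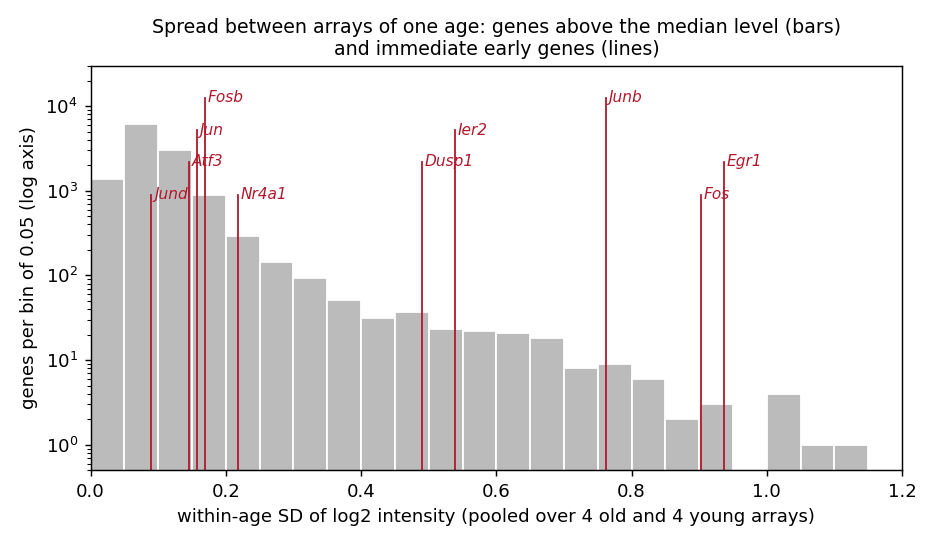
Number of genes above the median level (bars, log axis) by within-age SD of log2 intensity, with the 10 immediate early genes as red lines whose height carries no value. Fos and Egr1, at 0.90 and 0.94, stand in bins that hold few other genes, while Jund, at 0.09, lies near the middle of all genes. Fosb, which is drawn too, lies below the median level.

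The genes that varied were high and low in the same arrays. Old array 2 was the highest old array for 10 of the 10 genes, and young array 4 the highest young array for 9 of the 10, all except Atf3. In old arrays the count includes near ties. Fosb was at 121.32 in old array 2 and 121.28 in old array 1, and Atf3 at 589.8 in old array 2 and 587.88 in old array 3. Among all 18193 genes, old array 2 was highest of its age for 27.3% and young array 4 for 29.6%, and both held for 9.42% of genes against 9 of the 10 here. Young array 1 was the lowest of its age for 7 of the 10 genes, against 26.5% of all genes. Averaged over the 10 genes, the deviation from the age mean was 0.02, 0.52, -0.23 and -0.31 log2 units in old arrays 1 to 4, and -0.54, -0.14, 0.15 and 0.53 in young arrays 1 to 4.

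**Figure D4:**
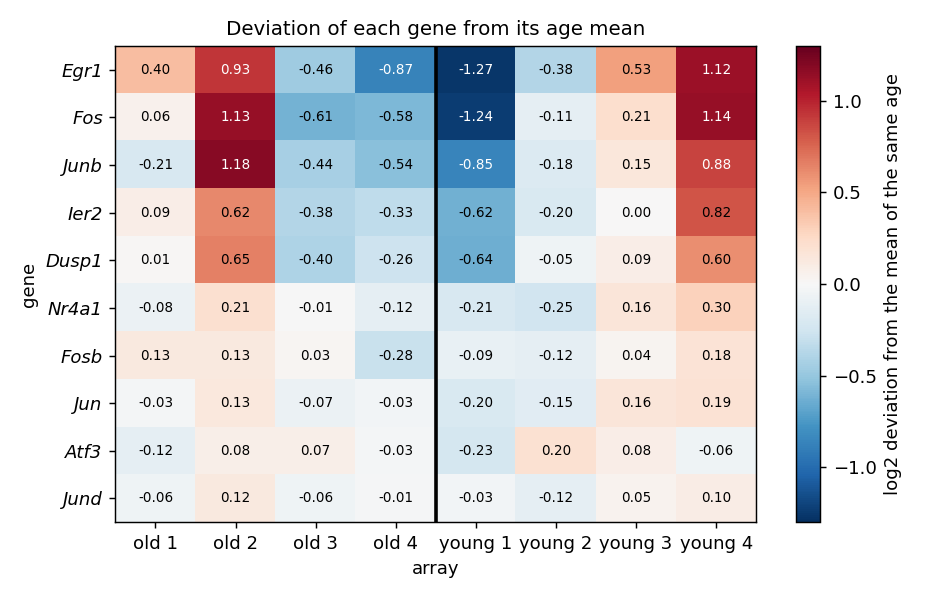
Log2 deviation of each immediate early gene from the mean of its own age, in 4 old (left) and 4 young (right) arrays, with genes ordered by the size of their deviations. Old array 2 and young array 4 are high in the upper 5 rows (0.60 to 1.18) and young array 1 is low (-1.27 to -0.62), while the row of Atf3 runs from -0.23 to 0.20.

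Once age means were removed, Fos correlated with the mean of the other 9 genes at r = 0.989 over the 8 arrays, Dusp1 at 0.979, Ier2 at 0.971, Junb at 0.966 and Egr1 at 0.956. Jun, Nr4a1, Jund and Fosb followed at 0.881, 0.858, 0.762 and 0.735, and Atf3 stood apart at 0.263. Without old array 2 and young array 4, the same 5 genes correlated at 0.930 to 0.980 over 6 arrays, Jun at 0.785, Nr4a1 at 0.617, Fosb at 0.533, Atf3 at 0.456 and Jund at 0.213. These are descriptions over few arrays, each point of which shares its RNA pool, labelling and scan across genes.

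Markers of other cells also differed between arrays of one age. Neutrophil markers stood out in old array 2, where 7 of 8 were the highest of the old arrays. The mean centred log2 level of that list was 2.00 in old array 2, against -0.35 to 0.29 in the other old arrays and -0.73 to -0.45 in young arrays. S100a8, a calcium-binding protein of neutrophils, was at 346, 7828, 867 and 888 in old arrays, against 110, 220, 206 and 191 in young arrays, whereas Elane, the neutrophil elastase, was at 189 to 215 in old and 177 to 204 in young arrays. In young array 4, rod markers were low (-0.53, against 0.46 to 0.58 in the other young arrays) and skeletal muscle markers were at 0.59, against 0.46 in young array 3 and -0.16 and -0.30 in young arrays 1 and 2. In old arrays 1 to 4 the rod list was at -0.71, -0.17, -0.83 and 0.72, and the muscle list at 0.47, -0.42, -0.12 and -0.53. Heat shock chaperones differed less, from -0.07 to 0.10 in old and -0.08 to 0.02 in young arrays. Their list was highest in old array 2 and young array 4 and lowest of the young arrays in young array 1. Both old array 2 and young array 4 were the highest of their age for 3 of 10 chaperones (30%, beside 9.42% of all genes). Young array 1 was the lowest of its age for 6 of 10 (60%, beside 26.5% of all genes). The part of these cells in the levels of the immediate early genes was not tested. With both arrays left out, an alternative chosen after seeing the data, Atf3 remained called (0.85, adjusted p = 0.00802), Egr1 was at -1.04 (adjusted p = 0.214) and Fos at -0.59 (adjusted p = 0.353).

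The genes outside the list whose array pattern was most like the mean of the 10 were sought among 12352 genes with a mean log2 value of at least 7. The closest 5 were Qser1 (r = 0.996, rho = 0.976), Mib1 (r = 0.994, rho = 1), Adcyap1r1 (r = 0.984, rho = 0.976), Orai3 (r = 0.980, rho = 0.976) and Fam8a1 (r = 0.979, rho = 0.929), over 8 arrays with age means removed. Their amplitude was much smaller, since Qser1 was at 266, 299, 250 and 251 in old arrays, against 205, 227, 238 and 261 in young arrays. None of the 5 was called between ages by limma, and 101 genes had an r over 0.9. Of the 5, 3 had an unadjusted p under 0.05 from limma, in differing directions. Qser1 and Mib1 had log2 differences of 0.20 each and Adcyap1r1 of -0.16. The share of all genes at that threshold was not counted.

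Other AP-1 partners were called about as often as genes in general. Of 12 measured genes, 2 were higher and 1 lower in old arrays (25% called, beside 21.3% of all genes), with a median log2 difference of 0.12, beside -0.02 over all genes. Maff, a small Maf protein without an activation domain, was at 181 ± 28.1 in old and 116 ± 7.78 in young arrays (SD, n = 4 each), a log2 difference of 0.63 (adjusted p = 0.00397). Mafk, another small Maf, was higher by 0.35 (adjusted p = 0.011), and Atf7, a relative of Atf2, fell by 0.44 on the log2 scale (adjusted p = 0.0205). Fosl2, a Fos relative singled out after its values were seen, was at 519, 1162, 552 and 529 in old arrays, against 321, 368, 417 and 514 in young arrays. Its within-age SD was 0.45, old array 2 was again the highest, and it was not called (log2 difference 0.70, adjusted p = 0.0913). Among 7 relatives and corepressors of Egr1 and Nr4a1, Nab1, which binds Egr proteins and represses them, was higher by 0.23 (adjusted p = 0.0401), a call that was lost without any one of 7 arrays, and the other 6 did not pass. Egr2, singled out after its values were seen, was at 276, 202, 263 and 219 in old arrays, against 113, 140, 209 and 359 in young arrays.

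In a wider list of 34 early response genes, stress genes and feedback regulators among them, 11 were higher and 1 was lower in old arrays (35.3% called, beside 21.3% of all genes), with a median log2 difference of 0.09. Gadd45a, a stress protein of growth arrest, averaged 566 ± 131 in old and 259 ± 14.9 in young arrays (SD, n = 4 each), a log2 difference of 1.11 (adjusted p = 0.000832). Cebpb, a leucine zipper factor of inflammation, was higher by 0.89 (adjusted p = 0.0176), and Pim1, a survival kinase, by 0.74 (adjusted p = 0.00837). Hbegf, a ligand of the EGF receptor, was the gene that fell, at 247 ± 36.6 in old and 456 ± 47.7 in young arrays (SD, n = 4 each), a log2 difference of -0.89 (adjusted p = 0.00111). Old array 2 was highest of its age for 24 of the 34, young array 4 for 26, and both for 20 (58.8%, beside 9.42% of all genes). Zfp36, which destabilizes cytokine transcripts, and Btg2, an antiproliferative gene, were picked out after their values were seen. Zfp36 was at 394, 805, 395 and 364 in old arrays, against 316, 461, 541 and 933 in young arrays, and Btg2 at 424, 723, 412 and 435 in old arrays, against 374, 446, 620 and 891 in young arrays. Neither was called, and both were highest in old array 2 and young array 4.

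**Figure D5:**
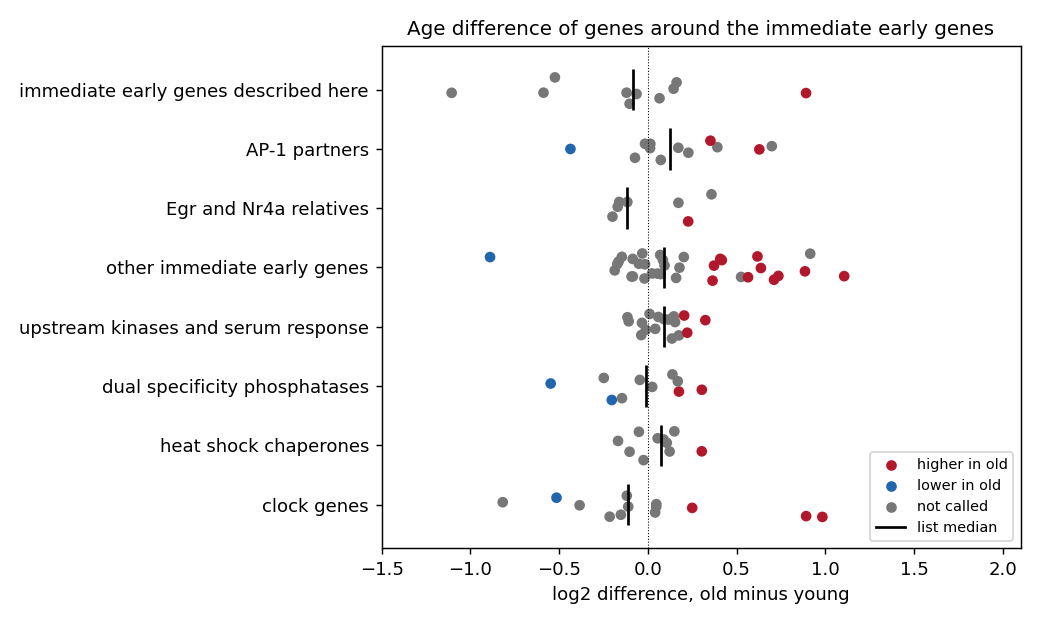
Log2 difference, old minus young, of each measured gene in the lists (red higher, blue lower in old, grey not called, vertical bar the list median). The immediate early genes have a median of -0.08 with Atf3 called at 0.89, and the wider list of early response genes has 11 genes called higher and 1 lower.

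The kinases and factors that act before the immediate early genes were called at about the share of all genes. Of 17 measured, 3 were higher (17.6% called, beside 21.3% of all genes), with a median log2 difference of 0.09. Leaving out single arrays gave 1 or 2 higher. Mrtfb, a coactivator of serum response factor, was higher by 0.32 (adjusted p = 0.00302), Elk4, another of its partners, by 0.22 (adjusted p = 0.0241) and Mapk9, the kinase JNK2, by 0.21 (adjusted p = 0.0367). The other 14 did not pass. The wide spread of Dusp1 was not shared by the other dual specificity phosphatases, whose median within-age SD was 0.09 against 0.49 for Dusp1. Of 10 of them, 2 were higher and 2 lower (40% called, beside 21.3% of all genes), with a median log2 difference of -0.01. Dusp4, a nuclear phosphatase of ERK and JNK, was at 1454 ± 279 in old and 2102 ± 150 in young arrays (SD, n = 4 each), a log2 difference of -0.55 (adjusted p = 0.0148). Dusp7, which acts on ERK, was lower (-0.20, adjusted p = 0.0259), and Dusp10 (0.30, adjusted p = 0.0214) and Dusp2 (0.18, adjusted p = 0.0365) were higher. These phosphatase calls were sensitive to single arrays, with 0 to 2 higher and 1 to 3 lower when each array was left out.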

How the data were processed

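The authors extracted RNA from the RPE/choroid, hybridized labelled cRNA to Affymetrix Mouse 430 2.0 arrays and deposited a table of 45101 probe sets with 1 linear intensity per array. The normalization behind the deposited intensity values is not given in the sources used here. RMA, Dchip and BRB-ArrayTools are all named in the methods. Array medians were 128.5 to 135.4, and the highest value was 19749.4. Detection calls were not used, so the removal of Absent probe sets was not repeated.

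Intensities below 1 (8 to 14 per array) were raised to 1 before taking log2. Of the probe sets, 64 controls were left out, 34945 named 1 gene, 932 several and 9160 none. The difference, old minus young, was fitted to 45037 probe sets in R 4.3.3 with limma 3.58.1 (lmFit and eBayes) and no covariate. Benjamini-Hochberg adjustment ran over all of these, and calls were made at an adjusted p under 0.05. For each gene the brightest probe set was used, judged by mean log2 over the 8 arrays. The fit was tested on simulated data with 200 changed probe sets. Its noise was drawn independently for each probe set, so it did not include the deviations shared between genes described above.

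The members and lists were chosen with earlier results of these data known. From each list the text names up to 4 genes with the largest change past the threshold, and the 5 genes most like the members among those with a mean log2 value of at least 7. Lists were counted, not tested. Same-numbered arrays of the ages had correlations of deviations of 0.0971, 0.019, 0.0218 and 0.0427, and nothing in the labels pairs them, so no block was used. Alternatives were a filter on low values, log2 of the value plus 16, array weights, median centring, quantile normalization, robust eBayes with a trend, a replicate block, each array left out, the study's threshold, other ways to represent a gene and, added after seeing the data, old array 2 and young array 4 both left out. Promoters came from RefSeq. Some genes of the lists are not reported here.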

Additional observations from a re-analysis of the deposited data

Results flagged for a closer look

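An array was singled out when its gap to the nearest of its age exceeded Dixon's critical share of the range of that age, which chance gives in about 1 in 20 groups. This was looked for in the 2 ages of 32 probe sets (64 groups), and 5 were found, 3 of them in old array 2. Junb was at 877.4 in old array 2, against 266 to 334.7 in the other old arrays. Gadd45a was at 762.3 in old array 2, against 494 to 507.6, and Pim1 at 777.2, against 491.5 to 526.2. In young array 4, Bag3, a cochaperone of Hsp70, was at 640.6, against 541.2 to 553.2 in the other young arrays, and Mapk9 was at 414.2, against 454.2 to 461.4.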

How the results depend on the processing

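Atf3 kept its direction in all 19 alternatives (0.82 to 0.96) and its call in 18, losing it under the study's threshold. Fos, Jun, Ier2 and Nr4a1 kept their direction in 19 alternatives and Fosb in the 18 that gave a value, since the filter on low values left it out, and none of the 5 was called. Of 597 values under alternatives, 492 were labelled unchanged. For a count this meant equal to the main count or within a set ratio of it, so such counts could still differ. For a difference it meant the same sign and the same call. Of the rest, 93 counts moved, 8 differences changed sign, 2 became called and 2 lost their call.

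Junb changed sign with array weights (-0.22), without old array 2 (-0.33), without young array 1 (-0.22) and with old array 2 and young array 4 both left out (-0.0335). With each array left out it ranged between -0.33 and 0.36. Dusp1 changed sign without old array 3 (0.07), old array 4 (0.02) or young array 4 (0.14), over a range of -0.28 to 0.14, and Jund with the mean of its probe sets (-0.10), which give opposite signs. With trend and robust estimation Jund was called (0.16, adjusted p = 0.0458), giving 2 genes and 2 probe sets higher, and the phosphatases had 1 higher and the chaperones 1 lower. With array weights Egr1 was called, giving 1 gene and 2 probe sets lower, and the Egr and Nr4a relatives had 0 higher and 2 lower. The cause was not tested.

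At a fold over 2 with an adjusted p under 0.01, 0 of the 10 genes and 0 of their 12 probe sets passed in either direction, against 344 higher and 36 lower of all probe sets. Of the lists, the wider early response genes kept 1 higher (Gadd45a) and 0 lower, and the AP-1 partners, Egr and Nr4a relatives, upstream kinases, phosphatases, chaperones and clock genes had 0. The filter on low values left 1 phosphatase higher, and log2 of the value plus 16 gave 2 clock genes lower. Quantile normalization gave 0 Egr and Nr4a relatives, 1 upstream gene and 0 chaperones higher. Probe sets with the plain suffix gave 1 phosphatase and 1 chaperone lower, and the mean of probe sets 0 upstream genes higher and 1 phosphatase lower. With both arrays left out, 2282 probe sets were higher and 1423 lower, with 0 Egr and Nr4a relatives, 1 upstream gene and 0 phosphatases higher, 0 phosphatases lower and 3 clock genes lower. The replicate number as a block gave 0 Egr and Nr4a relatives, 0 phosphatases and 0 chaperones higher, 1 phosphatase and 0 clock genes lower, and changed no call of the 10 genes. The own number gave the highest correlation for replicate 1 alone.

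With each array left out in turn, the 10 genes had 1 higher and 0 lower, and their probe sets 1 higher and 1 lower, in all 8 cases. All probe sets had 2827 to 4284 higher and 2135 to 4030 lower. AP-1 partners had 2 to 3 higher and 0 to 1 lower, Egr and Nr4a relatives 0 to 1 higher and 0 to 1 lower, and the wider early response genes 8 to 13 higher and 1 lower. Upstream genes had 1 to 2 higher, phosphatases 0 to 2 higher and 1 to 3 lower, chaperones 0 to 1 higher, and clock genes 1 to 3 higher and 0 to 3 lower.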

Other observations

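Clock genes, which set the daily rhythm of transcription and some of which respond to light and glucocorticoids as early genes do, were counted beside the immediate early genes because the hour of collection was not given in the sources used here. Of 13 measured, 3 were higher and 1 lower in old arrays (30.8% called, beside 21.3% of all genes), with a median log2 difference of -0.11. The counts changed when single arrays were left out, with 1 to 3 higher and 0 to 3 lower. Only 1 was higher without any one of old arrays 2, 3 or 4 or young arrays 1, 2 or 3. None (0) was lower without any one of old arrays 1, 3 or 4 or young arrays 1, 3 or 4, while 3 were lower without old array 2. Per1, a repressor that is itself an early response gene, was at 303, 741, 561 and 513 in old arrays, against 230, 212, 248 and 349 in young arrays (log2 difference 0.98, adjusted p = 0.028). It was highest in the same 2 arrays, old array 2 and young array 4. Cry1, its partner, was at 493 ± 108 in old and 262 ± 22.7 in young arrays (SD, n = 4 each, log2 difference 0.89, adjusted p = 0.00351). Cry2 was higher by 0.25 (adjusted p = 0.0484) and Npas2, a partner of Bmal1, was lower (-0.51, adjusted p = 0.0454). Dbp, an output factor of the clock named after its values were seen, was at 3161, 1335, 3352 and 3165 in old arrays, against 4702, 4695, 4077 and 4794 in young arrays, and was not called (-0.82, adjusted p = 0.0604). Its low value in old array 2 has no counterpart in young array 4.

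Of 10 heat shock chaperones, Bag3 was higher in old arrays, at 704 ± 63.6 in old and 570 ± 47.6 in young arrays (SD, n = 4 each, log2 difference 0.30, adjusted p = 0.0326), and the other 9 did not pass (10% called, beside 21.3% of all genes). The Bag3 call was lost without any one of old arrays 2 or 3 or young arrays 1, 2 or 3. Socs3, a feedback inhibitor of cytokine signaling picked out after its values were seen, was at 413, 1386, 576 and 578 in old arrays, against 276, 346, 388 and 407 in young arrays. The ages did not overlap, old array 2 was the highest, and the log2 difference of 0.92 was not called (adjusted p = 0.0776).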
